A study of Homo sapiens with 12 samples.

Results

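Interferon-stimulated genes are the genes that cells switch on after interferon binds its receptor. The set described here held 41 of the 20037 protein-coding genes on the 24 chromosomes 1 to 22, X and Y, grouped by role into 4 transcription factors, 2 RNA sensors, 21 antiviral effectors, 4 genes of ISG15 conjugation, 2 PARP family genes, 2 chemokines and 6 others. For each gene, the tallest ATAC-seq peak within 1 kb of either end of its RefSeq span was taken in each library, counting peaks with a height of 3 or more. Height is the MACS2 pileup at the peak summit, a measure of how many fragments lay over it. A gene with no such peak is given a height of 0 below, which means that no peak of that height was listed and not that no fragment was there.

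The study profiled open chromatin by ATAC-seq, in which a transposase inserts adapters into accessible DNA, in KYSE150 and KYSE510, established human cell lines of oesophageal squamous cell carcinoma grown in RPMI-1640 with 10% FBS. Each line was compared with and without silencing of HCP5, a long non-coding RNA, which gives 4 groups of 3 libraries: KYSE150 control, KYSE150 HCP5-silenced, KYSE510 control and KYSE510 HCP5-silenced. How HCP5 was silenced and what the control cells received are not given in the sources used here, nor is any interferon treatment. The labels do not say whether the 3 libraries of a group came from separate cultures, so p-values measure only the spread between these libraries. All 12 are bulk libraries, in which accessibility in fewer cells and lower accessibility per cell cannot be told apart.

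Type I interferons bind IFNAR1 and IFNAR2, the receptor-bound kinases JAK1 and TYK2 phosphorylate STAT proteins, and STAT2 takes part with IRF9 in the complex ISGF3. ISGF3 binds the interferon-stimulated response element, or ISRE, found in many promoters of the antiviral genes, while STAT dimers formed after interferon gamma bind the GAS element. Many of these genes are kept at low expression until interferon arrives, and some carcinomas express them without added interferon.

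Of the 41 genes, 33 had at least 1 entry in the RefSeq promoter table (GRCh38.p14), and 24 of these 33 (72.7%) held the ISRE core, written GAAA, any 2 bases and GAAA (or TTTC, any 2 bases and TTTC on the other strand), in a window from 250 bases before to 50 after an annotated start. The same letters were found at 4.16% of the 15843 protein-coding genes with an entry. The GAS letters TTCNNNGAA, which read the same on both strands, were found at 11 of the 33 (33.3%) and at 8.98% of all. A match is a description of the letters and not of a bound site. The 250 bases before the start are printed for 5 genes with an entry that stood out between the lines in control libraries by presence (RSAD2 and CMPK2) or by rank (IFI6 and PARP9 higher in KYSE510, MX1 lower), and, chosen after their values were seen, for 3 further starts that lie more than 1 kb inside a gene's span. The CMPK2 and PARP9 windows belong to starts that lie 728 and 484 bp inside the span, the annotated starts nearest to the tallest peak. Capitals mark ISRE core matches, and in DDX60 also a GAS match, and each is written 5′ to 3′ on the gene's own strand. RSAD2 (outer start, chr2:6865635-6865884, plus strand), CMPK2 (chr2:6865908-6866157, minus strand) and MX1 (chr21:41420308-41420557, plus strand) had no match in these windows, IFI6 (chr1:27672193-27672442, minus strand) had 3 and PARP9 (chr3:122564301-122564550, minus strand) had 1. This MX1 start did hold an ISRE core match when the 50 bases after it, which are not printed, were included. The RSAD2 outer start and this CMPK2 start held none there either. The inner start of RSAD2 (chr2:6877527-6877776, plus strand) and that of ISG20 (chr15:88638766-88639015, plus strand) had 1 each, and that of DDX60 (chr4:168318753-168319002, minus strand) had 2 beside its GAS match.
RSAD2, outer start: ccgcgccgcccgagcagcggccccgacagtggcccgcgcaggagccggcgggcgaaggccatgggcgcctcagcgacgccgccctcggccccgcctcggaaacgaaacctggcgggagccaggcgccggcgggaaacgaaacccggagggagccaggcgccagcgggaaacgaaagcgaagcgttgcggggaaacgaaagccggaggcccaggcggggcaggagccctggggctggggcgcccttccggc
CMPK2: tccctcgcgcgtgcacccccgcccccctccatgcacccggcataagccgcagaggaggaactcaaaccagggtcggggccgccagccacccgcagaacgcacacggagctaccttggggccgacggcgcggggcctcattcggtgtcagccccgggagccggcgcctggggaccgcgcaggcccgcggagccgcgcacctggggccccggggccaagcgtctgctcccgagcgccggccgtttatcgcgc
IFI6: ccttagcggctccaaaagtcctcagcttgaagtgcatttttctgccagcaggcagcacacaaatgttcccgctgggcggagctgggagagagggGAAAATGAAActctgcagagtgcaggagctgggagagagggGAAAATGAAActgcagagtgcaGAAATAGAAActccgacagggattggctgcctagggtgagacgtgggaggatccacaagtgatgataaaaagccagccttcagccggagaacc
PARP9: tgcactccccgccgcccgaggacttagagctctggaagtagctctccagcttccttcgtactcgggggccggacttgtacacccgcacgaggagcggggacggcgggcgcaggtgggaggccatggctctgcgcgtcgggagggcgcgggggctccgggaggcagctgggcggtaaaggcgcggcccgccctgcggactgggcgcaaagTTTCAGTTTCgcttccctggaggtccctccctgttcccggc
MX1: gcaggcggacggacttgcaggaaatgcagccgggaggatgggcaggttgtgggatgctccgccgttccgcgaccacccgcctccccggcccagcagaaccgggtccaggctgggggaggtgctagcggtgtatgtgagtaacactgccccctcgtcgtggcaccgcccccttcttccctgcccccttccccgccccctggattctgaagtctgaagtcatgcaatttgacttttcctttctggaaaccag
RSAD2, inner start: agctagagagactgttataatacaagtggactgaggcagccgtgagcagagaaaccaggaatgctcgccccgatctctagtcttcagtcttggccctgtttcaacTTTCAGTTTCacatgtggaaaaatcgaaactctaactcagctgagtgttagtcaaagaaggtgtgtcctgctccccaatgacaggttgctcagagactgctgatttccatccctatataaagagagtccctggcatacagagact
ISG20, inner start: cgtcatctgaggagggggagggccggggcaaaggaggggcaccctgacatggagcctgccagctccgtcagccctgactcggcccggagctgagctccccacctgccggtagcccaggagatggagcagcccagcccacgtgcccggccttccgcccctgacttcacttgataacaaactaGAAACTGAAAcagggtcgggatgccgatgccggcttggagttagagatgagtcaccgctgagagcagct
DDX60, inner start: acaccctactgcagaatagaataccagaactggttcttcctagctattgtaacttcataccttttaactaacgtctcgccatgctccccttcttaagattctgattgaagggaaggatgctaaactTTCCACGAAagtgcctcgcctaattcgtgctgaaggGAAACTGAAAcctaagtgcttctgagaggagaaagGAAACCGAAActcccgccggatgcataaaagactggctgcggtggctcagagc

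The lists of the lines differ in length, which bears on every comparison between them. Peaks of any height numbered 546453 to 629921 in the KYSE150 libraries and 115761 to 135841 in the KYSE510 libraries, but those of height 3 or more numbered 52869 to 63295 in KYSE150 and 104208 to 123109 in KYSE510, with a median height of 5 in every library. The commonest background implied by height and fold enrichment, as (height + 1) divided by the fold enrichment, minus 1, ranged on the scale of height from 0.0826 to 0.108 among KYSE150 libraries and from 0.180 to 0.217 among those of KYSE510. Sequencing depth is not in the lists. At HCP5 itself the tallest peak was 0, 0 and 3 in KYSE150 control, 0, 3 and 4 in KYSE150 HCP5-silenced, 16, 17 and 8 in KYSE510 control and 23, 9 and 20 in KYSE510 HCP5-silenced libraries. A peak at the gene does not measure its RNA, so it does not check the silencing. Of 10 markers of squamous epithelium, 6 to 8 had a peak in each group and TP63 had none. Summed heights were 0 to 8 for 5 T and B cell markers, 0 to 5 for 3 endothelial and 0 to 5 for 3 fibroblast markers, and MS4A1, PECAM1 and COL3A1 were at 0 throughout. The 3 myeloid genes CD14, SPI1 and CSF1R, the last with a peak in the window of PDGFRB, had summed heights of 14 to 24 in KYSE150 and 41 to 57 in KYSE510, and their part in the results was not tested.

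More of the interferon-stimulated genes had a peak in KYSE510 than in KYSE150. In KYSE150 control libraries 19, 21 and 21 of the 41 had one, and 18, 16 and 17 in KYSE150 HCP5-silenced libraries. In KYSE510 the numbers were 30, 28 and 28 in control and 26, 31 and 35 in HCP5-silenced libraries. By this rule no KYSE510 library fell to the level of any KYSE150 library, and within a line the control and HCP5-silenced libraries overlapped in KYSE510 but not in KYSE150. As a share of the set, the means were 49.6% (KYSE150 control), 41.5% (KYSE150 HCP5-silenced), 69.9% (KYSE510 control) and 74.8% (KYSE510 HCP5-silenced). The same shares over all protein-coding genes were 53.8% ± 0.358, 52.2% ± 1.48, 63.4% ± 1.22 and 63.0% ± 0.455 (SD, n = 3). In KYSE150 the shares of all genes did not overlap either, at 53.4% to 54.1% in control and 50.5% to 53.2% in HCP5-silenced libraries. The lack of overlap in KYSE150 is thus not particular to the set. By this rule the set lay below all genes in KYSE150 and above them in KYSE510, with KYSE510 HCP5-silenced replicate 1 the nearest to all genes at 63.4% against 62.6%. That library fell below all genes with peaks of height 5 or more (51.2% against 54.0%) and of height 2 or more (63.4% against 63.7%). With peaks of height 2 or more, the place of KYSE150 below all genes and its separation from KYSE510 were lost: 22, 26 and 25 genes of the set had a peak in control and 27, 19 and 21 in HCP5-silenced libraries, so these groups overlapped, and replicate 1 of the latter passed KYSE510 HCP5-silenced replicate 1 at 26. KYSE150 control replicates 2 and 3 and HCP5-silenced replicate 1 were then above all genes, at 63.4%, 61.0% and 65.9% against 58.8%, 58.6% and 58.8%.

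The gap was narrower when an equal number of peaks was kept in each library. The part of list length in it was not tested. When only the 50000 tallest peaks of each library were kept, all protein-coding genes had nearly the same share in both lines, 48.8% to 50.9% in KYSE150 and 46.9% to 51.7% in KYSE510. The set then ranged from 34.1% to 43.9% in KYSE150 and from 43.9% to 58.5% in KYSE510, the lowest KYSE510 library meeting the highest of KYSE150. It stayed below all genes in KYSE150 but was no longer above them throughout KYSE510. It was below them in KYSE510 control replicate 1 (51.2% against 51.7%) and HCP5-silenced replicates 1 (43.9% against 49.8%) and 3 (48.78% against 48.85%), and above them in the other KYSE510 libraries. Control and HCP5-silenced libraries of KYSE150 then overlapped, with 15, 18 and 17 genes against 16, 14 and 17. This rule was chosen after seeing the data.

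**Figure D1:**
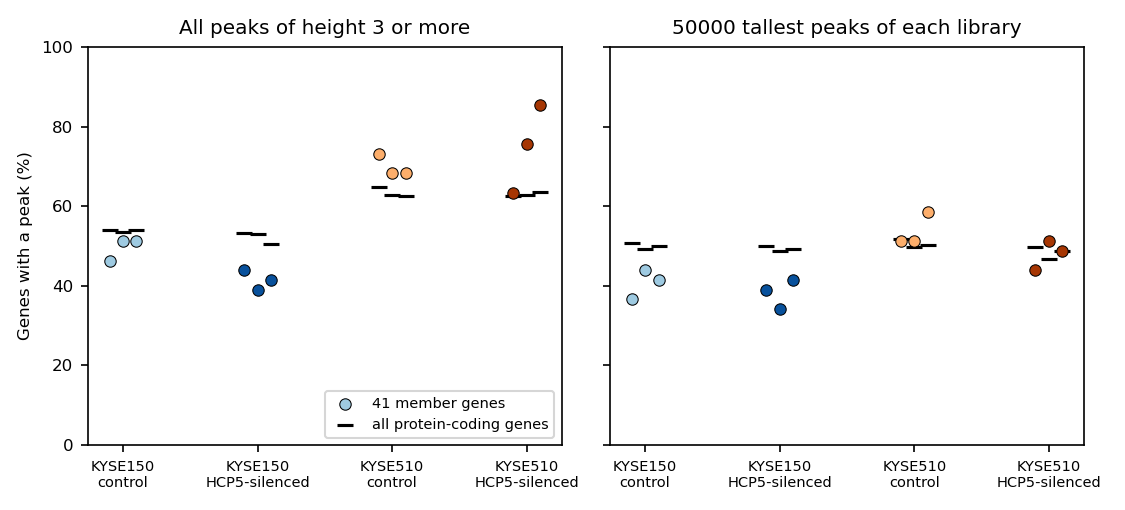
Share of genes with a peak (y axis, percent) in each of the 12 libraries (x axis, grouped by line and treatment), for the 41 interferon-stimulated genes (circles) and all 20037 protein-coding genes (bars). With all peaks of height 3 or more (left) the KYSE510 circles lie between 63.4% and 85.4% and the KYSE150 circles between 39.0% and 51.2%; with the 50000 tallest peaks of each library (right) the bars of the lines are level.

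The genes fell into a few patterns across the 12 libraries. A peak was listed in all 12 for 10 of the 41 (24.4%, against 40.7% of all genes): STAT2, IRF1, IRF9, IFIH1, IFITM3, OASL, ISG15, HERC6, PARP9 and IFI6. Another 10 (24.4%, against 8.28% of all genes) had one in all 6 KYSE510 libraries and in 1 to 5 of KYSE150, namely IFITM1, MX1, OAS1, OAS2, OAS3, ISG20, HERC5, USP18, PARP14 and IFI44. RSAD2 and CMPK2 (4.88%, against 2.78% of all genes) had one in all 6 KYSE510 and in no KYSE150 library. They share 1 peak, so this is 1 observation and does not set the members apart from all genes. SAMD9 alone had one in all 6 KYSE150 and only some KYSE510 libraries (1.86% of all genes), and no member had one in all 6 KYSE150 and no KYSE510 library (0.2% of all genes). DDX60, CXCL10 and IFI27 had none within 1 kb of their span ends in any library (22.0% of all genes), and 15 genes had other patterns. Counted by libraries, 24 genes had a peak in more KYSE510 than KYSE150 libraries, 1 in more KYSE150 libraries and 16 in equal numbers, against 5657, 1216 and 13164 of all genes.

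**Figure D2:**
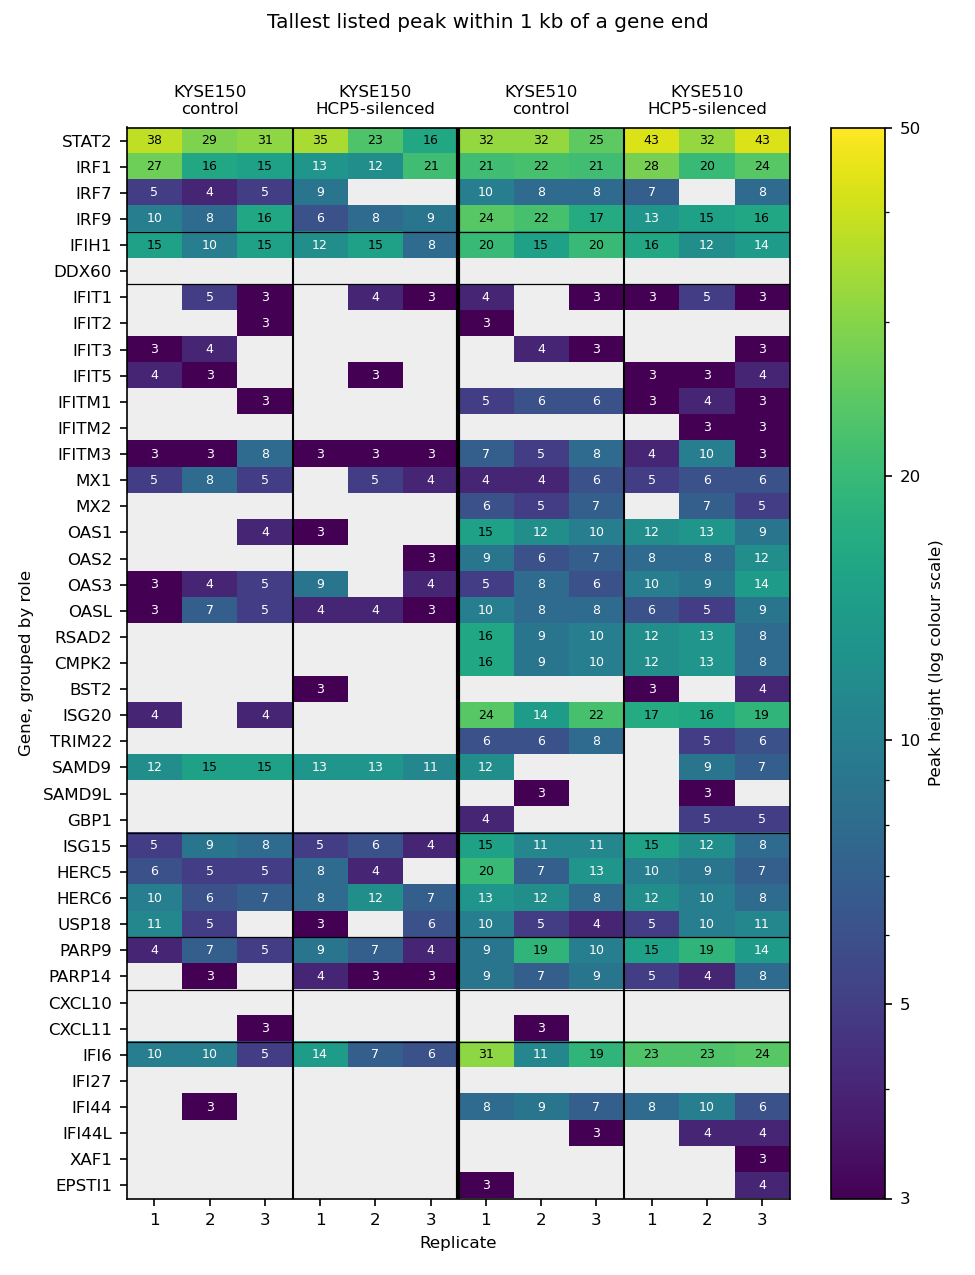
Height of the tallest peak (colour, log scale, with the value printed in each cell) for the 41 interferon-stimulated genes (rows, grouped by role) in the 12 libraries (columns, replicates within line and treatment); grey cells have no listed peak of height 3 or more. The KYSE510 columns hold more filled cells, with STAT2 and IRF1 tall in every library and RSAD2 and CMPK2 filled in the 6 KYSE510 columns only.

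Most of these peaks lay near annotated starts. Of the 38 genes with a peak in any library, 30 had a strand in the promoter table, and in all 30 the tallest peak was on the side of the gene start. The tallest peak was within 500 bp of an annotated start in 27 of them and overlapped a promoter entry in 24. The other 8 of the 38 had no entry, so the side is not given for them. In single libraries the tallest peak could be another one: that of ISG20 in KYSE150 and 2 of the 3 of BST2 lay at the gene end, and those of IRF7, IFITM1 and PARP14, among others, lay at several places. For some genes the peak also lay in the window of a neighbour, and such a peak cannot be given to 1 gene: STAT2 with APOF, IRF9 with RNF31, IFIH1 with GCA, PARP9 with DTX3L, IFIT5 with LIPA, IRF7 with CDHR5 and PHRF1, BST2 with MVB12A, and RSAD2 with CMPK2.

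To compare groups, each gene's height was ranked within its library among the genes that had a peak in all libraries compared, the ranks were turned into normal scores, and limma was fitted over all such genes. A score difference of 1 is 1 SD of the ranks, so a rescaling of all heights of a library does not change it. Differences in background, in ties at low heights and in which genes have a listed peak can still enter. Between the lines, such differences in sequencing or peak calling cannot be told apart from the line. Genes that lacked a peak in any library of a comparison were not tested. A call is a Benjamini-Hochberg adjusted p under 0.05 over all genes tested. In the plain descriptions below, a gene's place is given as a percentile of height among all 20037 genes of the library.

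Of the transcription factors, STAT2 and IRF1 had the highest median ranks of the set. STAT2, a subunit of ISGF3, had heights of 38, 29 and 31 in KYSE150 control, 35, 23 and 16 in KYSE150 HCP5-silenced, 32, 32 and 25 in KYSE510 control and 43, 32 and 43 in KYSE510 HCP5-silenced libraries. Its percentile lay between 89.6 and 97.7 in all 12, with group means of 96.5 ± 0.984, 94.5 ± 3.19, 91.3 ± 2.62 and 96.0 ± 1.44 (SD, n = 3) in the same order. Silencing went with lower STAT2 heights in KYSE150, where the groups overlapped, and with higher heights on average in KYSE510, where a height of 32 occurred in both groups.

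IRF1, a factor that binds ISRE-like sites and is itself induced through a GAS element, had heights of 27, 16 and 15 in KYSE150 control, 13, 12 and 21 in KYSE150 HCP5-silenced, 21, 22 and 21 in KYSE510 control and 28, 20 and 24 in KYSE510 HCP5-silenced libraries. It was tall in all 12 libraries, and the groups overlapped within each line. IRF9, the DNA-binding subunit of ISGF3, had heights of 10, 8 and 16 in KYSE150 control, 6, 8 and 9 in KYSE150 HCP5-silenced, 24, 22 and 17 in KYSE510 control and 13, 15 and 16 in KYSE510 HCP5-silenced libraries. In KYSE510 every HCP5-silenced library was below every control library for IRF9. IRF7, which amplifies the production of type I interferon, had lower peaks of 5, 4 and 5 in KYSE150 control, 9, 0 and 0 in KYSE150 HCP5-silenced, 10, 8 and 8 in KYSE510 control and 7, 0 and 8 in KYSE510 HCP5-silenced libraries. As its tallest peak lay at different places in different libraries, these heights do not follow 1 site. It was the only member with a peak listed in every control library that was missing from some HCP5-silenced libraries of both lines.

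Of the RNA sensors, IFIH1, which encodes the double-stranded RNA sensor MDA5, had heights of 15, 10 and 15 in KYSE150 control, 12, 15 and 8 in KYSE150 HCP5-silenced, 20, 15 and 20 in KYSE510 control and 16, 12 and 14 in KYSE510 HCP5-silenced libraries. Its mean percentile was 74.4 to 80.4 in the 4 groups, so its rank was much the same in each. DDX60, a helicase related to the RIG-I-like sensors, had no peak at its span ends, but its annotated start lies 7227 bp inside the span, and values there are given further on.

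Of the OAS genes, which make the 2-5A messenger that activates RNase L, OAS1 and OAS2 were listed more often in KYSE510. OAS1 had heights of 0, 0 and 4 in KYSE150 control, 3, 0 and 0 in KYSE150 HCP5-silenced, 15, 12 and 10 in KYSE510 control and 12, 13 and 9 in KYSE510 HCP5-silenced libraries. OAS2 had 0, 0 and 0 in KYSE150 control, 0, 0 and 3 in KYSE150 HCP5-silenced, 9, 6 and 7 in KYSE510 control and 8, 8 and 12 in KYSE510 HCP5-silenced libraries. For both genes the lowest KYSE510 library was above the highest KYSE150 library. Heights were taller in general in KYSE510, where the median gene had 5 to 7 against 3 in KYSE150. The share of all genes with such a gap in height was not counted. OAS3 differed less between the lines, with 3, 4 and 5 in KYSE150 control, 9, 0 and 4 in KYSE150 HCP5-silenced, 5, 8 and 6 in KYSE510 control and 10, 9 and 14 in KYSE510 HCP5-silenced libraries. OASL, a family member without the synthase activity, was listed in all 12, at 3, 7 and 5 in KYSE150 control, 4, 4 and 3 in KYSE150 HCP5-silenced, 10, 8 and 8 in KYSE510 control and 6, 5 and 9 in KYSE510 HCP5-silenced libraries. In KYSE510 the HCP5-silenced libraries were above the controls for OAS3 and overlapped them for OAS1 and OASL.

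RSAD2, which encodes the radical SAM enzyme viperin, and CMPK2, a mitochondrial nucleotide kinase, lie on opposite strands of chromosome 2. Their spans overlap at the sides of their starts. Both windows held the same peak, of height 16, 9 and 10 in KYSE510 control and 12, 13 and 8 in KYSE510 HCP5-silenced libraries, and no peak of height 3 or more in the 6 KYSE150 libraries. In KYSE510 control replicate 1 it spanned chr2:6865774-6866722, 949 bp that cover the starts of both genes. Since it is 1 region, the pair counts as 1 observation. When peaks of height 2 were admitted, KYSE150 HCP5-silenced replicates 1 and 3 had a height of 2 there and the other 4 KYSE150 libraries still had none. The group mean percentile in KYSE510 was 67.1 ± 4.55 in control and 67.1 ± 9.08 in HCP5-silenced libraries (SD, n = 3).

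MX1 and MX2, dynamin-like GTPases that block viruses, differed. MX1 had heights of 5, 8 and 5 in KYSE150 control, 0, 5 and 4 in KYSE150 HCP5-silenced, 4, 4 and 6 in KYSE510 control and 5, 6 and 6 in KYSE510 HCP5-silenced libraries. MX2 had none in the 6 KYSE150 libraries, 6, 5 and 7 in KYSE510 control and 0, 7 and 5 in KYSE510 HCP5-silenced libraries. MX1 heights overlapped between the lines, while the tallest peak of the median gene was 3 in KYSE150 and 5 to 7 in KYSE510, and MX2 peaks were listed in KYSE510 alone. TRIM22, a ubiquitin ligase with antiviral activity, resembled MX2, with none in KYSE150, 6, 6 and 8 in KYSE510 control and 0, 5 and 6 in KYSE510 HCP5-silenced libraries.

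ISG20, an exonuclease that degrades viral RNA, had heights of 4, 0 and 4 in KYSE150 control, 0, 0 and 0 in KYSE150 HCP5-silenced, 24, 14 and 22 in KYSE510 control and 17, 16 and 19 in KYSE510 HCP5-silenced libraries. These are different peaks: in KYSE510 control replicate 1 the peak lies 2786 bp before the annotated start, whereas those of KYSE150 control replicates 1 and 3 lie 18563 and 18547 bp past it, near the gene's other end. SAMD9, a translation-inhibiting factor that restricts poxviruses, was the member with the reverse pattern, at 12, 15 and 15 in KYSE150 control, 13, 13 and 11 in KYSE150 HCP5-silenced, 12, 0 and 0 in KYSE510 control and 0, 9 and 7 in KYSE510 HCP5-silenced libraries. A window of 2 kb gave SAMD9 a peak in all 12 libraries, at 22, 23 and 20, at 19, 24 and 16, at 12, 14 and 15 and at 17, 18 and 9 in the same order of groups, so accessible DNA was listed close by in KYSE510 too.

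The IFIT genes, whose proteins bind viral RNA, had low peaks at most. IFIT1 reached 5 and was listed in 9 libraries of both lines, and IFIT2, IFIT3 and IFIT5 were listed in 2, 5 and 6 libraries with heights of 3 or 4. IFIT5 was the 1 member listed in all 3 HCP5-silenced (3, 3 and 4) and no control library of KYSE510, a pattern seen at 0.165% of all genes. In KYSE150 it was listed at 4, 3 and 0 in control and 0, 3 and 0 in HCP5-silenced libraries, so the order was not repeated there. The KYSE510 peaks lie 425, 212 and 534 bp past its start, not all at 1 place, in the window shared with LIPA. No member had the opposite pattern in KYSE510 (0.185% of all genes), nor either pattern in KYSE150 (0.165% of all genes for a peak in controls only and 0.0599% for HCP5-silenced libraries only).

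Of the IFITM genes, which keep viruses from fusing with membranes, IFITM3 was listed in all 12 libraries, at 3, 3 and 8 in KYSE150 control, 3, 3 and 3 in KYSE150 HCP5-silenced, 7, 5 and 8 in KYSE510 control and 4, 10 and 3 in KYSE510 HCP5-silenced libraries. IFITM1 was listed in 1 KYSE150 library, a control at 3, and in KYSE510 at 5, 6 and 6 in control and 3, 4 and 3 in HCP5-silenced libraries. IFITM2 was listed in KYSE510 HCP5-silenced replicates 2 and 3 only, at 3 in both. The family members are close in sequence, as are the IFIT genes, and how reads that fit several places were treated is not given in the sources used here, so these values are uncertain. BST2, or tetherin, was listed in 3 libraries at heights of 3 or 4, GBP1, a guanylate-binding protein, in 3 KYSE510 libraries at 4 or 5, and SAMD9L in 2 KYSE510 libraries at 3.

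Genes of ISG15 conjugation were listed in most libraries. ISG15, a ubiquitin-like modifier, had heights of 5, 9 and 8 in KYSE150 control, 5, 6 and 4 in KYSE150 HCP5-silenced, 15, 11 and 11 in KYSE510 control and 15, 12 and 8 in KYSE510 HCP5-silenced libraries. HERC5, the ligase that attaches ISG15, had 6, 5 and 5 in KYSE150 control, 8, 4 and 0 in KYSE150 HCP5-silenced, 20, 7 and 13 in KYSE510 control and 10, 9 and 7 in KYSE510 HCP5-silenced libraries. Heights of both genes were higher in KYSE510 controls than in KYSE150 controls without overlap. Heights were higher in general in KYSE510 controls, where the median gene had 5 to 7 against 3 in KYSE150. By rank the control libraries of the lines overlapped for both genes (limma adjusted p = 0.374 for ISG15 and 0.100 for HERC5). HERC6, its neighbour in the genome, was more even, with 10, 6 and 7 in KYSE150 control, 8, 12 and 7 in KYSE150 HCP5-silenced, 13, 12 and 8 in KYSE510 control and 12, 10 and 8 in KYSE510 HCP5-silenced libraries. USP18, which removes ISG15 and dampens interferon signalling at the receptor, had 11, 5 and 0 in KYSE150 control, 3, 0 and 6 in KYSE150 HCP5-silenced, 10, 5 and 4 in KYSE510 control and 5, 10 and 11 in KYSE510 HCP5-silenced libraries. The USP18 groups overlapped in each line. USP18 has close copies in the genome, so its peak is uncertain in the same way.

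PARP9, an ADP-ribosylation factor that works with the ligase DTX3L, had heights of 4, 7 and 5 in KYSE150 control, 9, 7 and 4 in KYSE150 HCP5-silenced, 9, 19 and 10 in KYSE510 control and 15, 19 and 14 in KYSE510 HCP5-silenced libraries. PARP14, a mono-ADP-ribosyltransferase, had 0, 3 and 0 in KYSE150 control, 4, 3 and 3 in KYSE150 HCP5-silenced, 9, 7 and 9 in KYSE510 control and 5, 4 and 8 in KYSE510 HCP5-silenced libraries. Both were taller on average in KYSE510, and PARP14 was listed more often in HCP5-silenced than in control libraries of KYSE150.

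The chemokines that attract T cells were nearly bare. CXCL10 had no peak in any library and CXCL11 had 1 of height 3 in a control library of each line. Among the other genes, IFI6, a mitochondrial and endoplasmic reticulum protein that limits apoptosis and flavivirus replication, was the tallest, with 10, 10 and 5 in KYSE150 control, 14, 7 and 6 in KYSE150 HCP5-silenced, 31, 11 and 19 in KYSE510 control and 23, 23 and 24 in KYSE510 HCP5-silenced libraries. IFI44 had 0, 3 and 0 in KYSE150 control, 0, 0 and 0 in KYSE150 HCP5-silenced, 8, 9 and 7 in KYSE510 control and 8, 10 and 6 in KYSE510 HCP5-silenced libraries. Its neighbour and relative IFI44L was listed in 3 KYSE510 libraries only, at 3 or 4, which is less than IFI44 in the same libraries. XAF1, a pro-apoptotic antagonist of XIAP, was listed in KYSE510 HCP5-silenced replicate 3 alone at 3, EPSTI1 in 2 KYSE510 libraries at 3 and 4, and IFI27 in none.

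**Figure D3:**
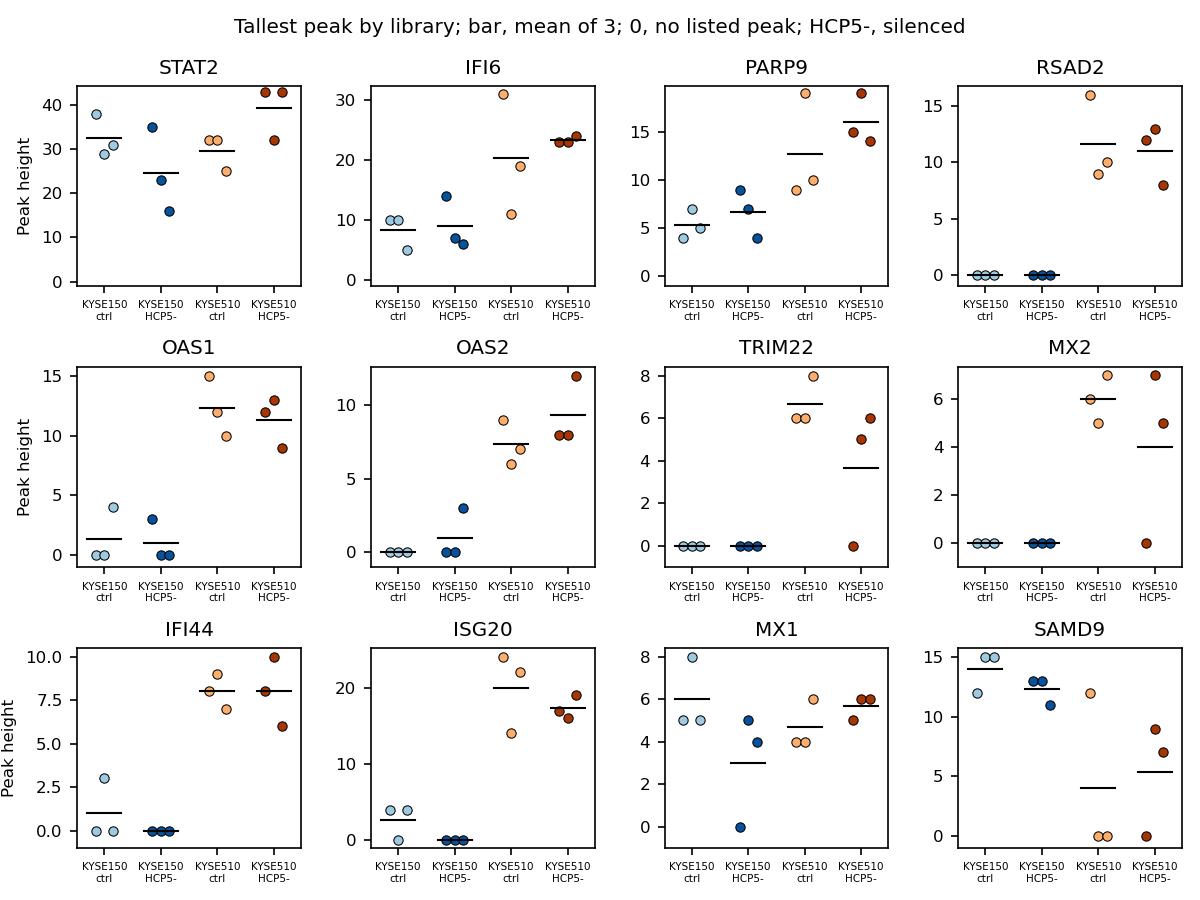
Height of the tallest peak (y axis) in each library of the 4 groups (x axis; ctrl stands for control, HCP5- for HCP5-silenced) for 12 genes; each point is 1 library, the line is the mean of 3 and 0 means no listed peak. At the span ends plotted here, RSAD2, OAS1, OAS2, TRIM22, MX2, IFI44 and ISG20 are at 4 or less in KYSE150. STAT2, MX1 and SAMD9 overlap between the lines, and the means of SAMD9 are lower in KYSE510.

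Comparing the lines in control libraries addresses how the starting state of the genes differs between the cells. The comparison tested 14 of the 41 genes, and none of the 14 passed, against 15.9% of the 9031 genes tested (8.67% higher and 7.22% lower in KYSE510). Of the 14, 5 had an unadjusted p under 0.05 (35.7%, against 31.9% of all genes). The score difference, KYSE510 minus KYSE150, was above 0 for 11 and below 0 for 3, with a median of 0.36 against -0.02 over all genes tested. The differences furthest from 0 were those of IFI6 (0.82 ± 0.36 SE, limma adjusted p = 0.149), PARP9 (0.82 ± 0.38, limma adjusted p = 0.166), MX1 (-0.81 ± 0.32, limma adjusted p = 0.110) and HERC5 (0.79 ± 0.30, limma adjusted p = 0.100). HERC5 passed when KYSE510 control replicate 2 was left out (1.12, limma adjusted p = 0.0302). IFI6 passed in HCP5-silenced libraries (0.96 ± 0.29, limma adjusted p = 0.0447), and IFI6, PARP9 and ISG15 passed over all 12 (limma adjusted p = 0.00776, 0.0157 and 0.0468). Only 10 members could be tested over all 12. So many of all genes passed there, as counted in the last section, that these calls do not set the members apart. Leaving out 1 control called 715 to 1008 of all genes, and the count in HCP5-silenced libraries is not given here. Control ranks did not overlap for 2 of the 14, IRF7 being higher in KYSE510 (17.7% of all genes tested) and STAT2 lower (18.2%). The control heights of STAT2, in contrast to its ranks, overlapped between the lines.

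Most of the genes that were listed in KYSE510 more than in KYSE150 could not enter that test, because a gene must have a peak in all 6 control libraries. For these the comparison is by presence. Among the controls, 5 genes, MX2, OAS2, RSAD2, CMPK2 and TRIM22, had a peak in all 3 KYSE510 and no KYSE150 library, against 4.6% of all genes, and none had the reverse, against 0.454%. With RSAD2 and CMPK2 as 1 region, the 5 genes stand for 4 peaks. They rested on the rule for a peak: with the 50000 tallest peaks of each library OAS2, RSAD2 and CMPK2 kept the pattern, PARP14 gained it, and MX2 and TRIM22 lost it. OAS2, RSAD2 and CMPK2 also kept it with peaks of height 2 or more, 5 or more, an FDR of 0.05 or less, and a window of 2 kb. The libraries of the lines also differ in background and list length, and their part in these patterns beyond those rules was not tested.

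In HCP5-silenced against control libraries, the question the study poses for each line, no interferon-stimulated gene passed the test. In KYSE150, 11 of the 41 were tested and 0 passed, against 0% of 8571 genes by limma, of which 442 had an unadjusted p under 0.05 and none of the 11 did. PARP9 (score difference 0.53 ± 0.34 SE) and HERC6 (0.49 ± 0.30) were furthest above 0, and ISG15 (-0.34 ± 0.31) and IFITM3 (-0.34 ± 0.40) furthest below, each with a limma adjusted p of 0.982. IFITM3 turned to 0.18 without KYSE150 control replicate 3, the library in which its height was 8. The 11 had a median difference of -0.10, with 5 above 0 and 6 below. No tested gene of the set had ranks that did not overlap, against 4.85% of all genes for higher and 4.98% for lower ranks.

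In KYSE510, 22 of the 41 were tested and 0 passed, against 0% of 10377 genes by limma, of which 622 had an unadjusted p under 0.05. OAS3 (0.88 ± 0.29 SE) and IFITM1 (-0.83 ± 0.27) were the 2 of the 22 with an unadjusted p under 0.05, each with a limma adjusted p of 0.800. USP18 (0.60 ± 0.36, adjusted p = 0.874) and PARP14 (-0.56 ± 0.26, adjusted p = 0.844) came next, and PARP14 turned to 1.04 in a window of 2 kb, where another peak is the tallest. Ranks did not overlap for STAT2, OAS2 and OAS3, which were higher in HCP5-silenced libraries (5.88% of all genes), and for IRF9, which was lower (5.8%). The margin was narrow for STAT2, whose percentiles among all genes met at 94.3, and the heights of OAS2 overlapped. The 22 had 9 differences above 0 and 13 below with a median of -0.03, so the set as a whole had no common direction. With 3 libraries a group and SEs of 0.21 to 0.48 among these genes, changes of the size of an SE could not have been detected, and a missed threshold does not show that silencing left them as they were.

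**Figure D4:**
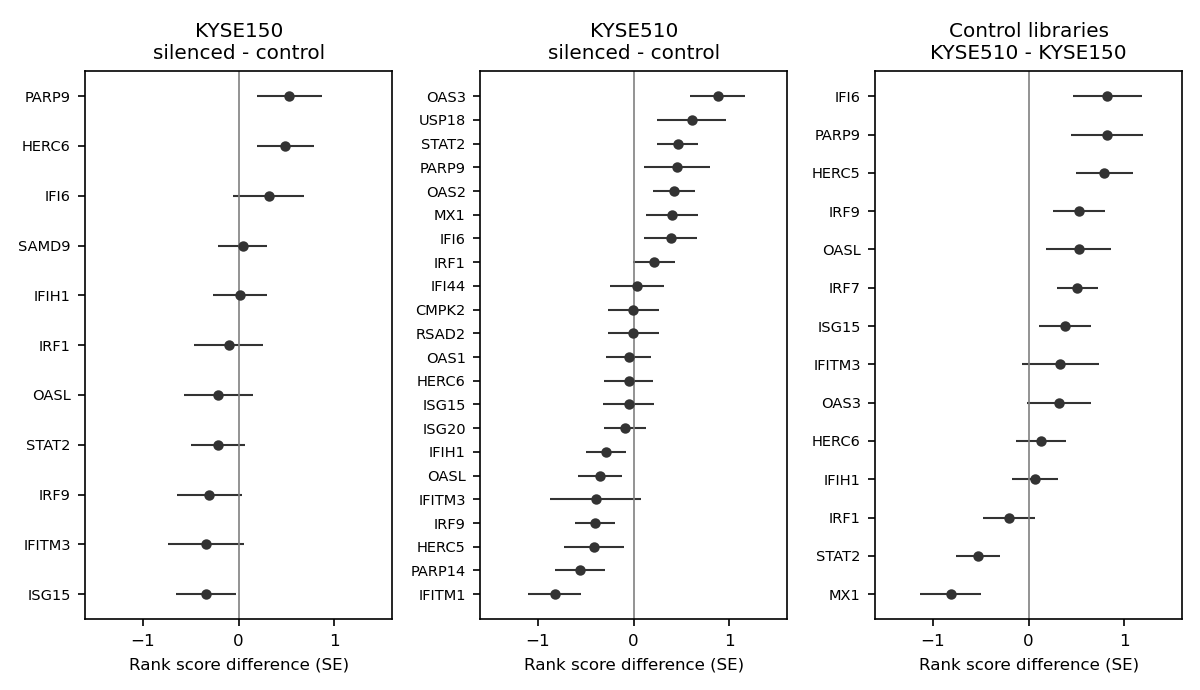
Rank score difference (x axis, points) with its standard error (bars) for the members tested in each comparison (y axis), from limma over all genes: 11 genes for silencing in KYSE150, 22 for silencing in KYSE510 and 14 for the lines in control libraries. Differences lie on both sides of 0 for silencing, while 11 of 14 lie above 0 for the lines; none has an adjusted p under 0.05.

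Whether silencing acted differently in the lines was tested as an interaction over all 12 libraries. Of the 41, 10 were tested and 0 passed, against 0% of 8159 genes by limma, of which 444 had an unadjusted p under 0.05. STAT2 was furthest from 0, its silencing difference being 0.71 ± 0.35 SE larger in KYSE510 than in KYSE150 (limma adjusted p = 0.919). HERC6 (-0.55 ± 0.41), IRF1 (0.34 ± 0.45) and IFIH1 (-0.33 ± 0.35) followed, each with a limma adjusted p of 1.0.

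Some genes have annotated starts away from the ends of their span, which the rule misses. Counting peaks within 1 kb of any start in the promoter table, a rule added after seeing the data, changed the picture for DDX60, ISG20, IFI27 and RSAD2. At the DDX60 start, whose ISRE matches are printed above, heights were 9, 8 and 7 in KYSE150 control, 5, 7 and 8 in KYSE150 HCP5-silenced, 19, 9 and 8 in KYSE510 control and 4, 8 and 10 in KYSE510 HCP5-silenced libraries. DDX60 was thus listed in all 12, with all groups overlapping. At the ISG20 start, 3384 bp inside the span, heights were 45, 34 and 38 in KYSE150 control, 37, 43 and 30 in KYSE150 HCP5-silenced, 100, 68 and 79 in KYSE510 control and 74, 82 and 82 in KYSE510 HCP5-silenced libraries. This peak was listed in every library of both lines, unlike the outer peak of ISG20, and did not overlap between the lines in height. Heights were taller in general in KYSE510, and the share of all genes with such a gap was not counted. By rank, the score difference of ISG20 between the lines under this rule was 0.69 ± 0.22 SE (limma adjusted p = 0.0570).

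RSAD2 has a second annotated start 11892 bp inside its span, with the ISRE match printed above. Heights there were 3, 4 and 0 in KYSE150 control, 3, 0 and 0 in KYSE150 HCP5-silenced, 6, 15 and 9 in KYSE510 control and 17, 3 and 9 in KYSE510 HCP5-silenced libraries. So the line pattern of RSAD2 was complete only at the outer start that it shares with CMPK2, while at the inner start low peaks were listed in 3 KYSE150 libraries. IFI27, whose start lies 4842 bp inside the span, had heights of 4, 5 and 0 in KYSE510 control and 0, 4 and 0 in KYSE510 HCP5-silenced libraries and none in KYSE150. By this rule KYSE150 control replicates 2 and 3 were above all genes, at 63.6% and 57.6% against 55.2% and 56.1%. With these starts, 11 of the 33 genes (33.3%) were listed in all 12 libraries, against 43.9% of 15842 genes, 8 (24.2%) in all KYSE510 and some KYSE150 libraries, against 7.80%, and CXCL10 alone in none. CMPK2 alone was listed in all KYSE510 and no KYSE150 libraries (3.03%, against 2.98%), near the share of all genes.

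**Figure D5:**
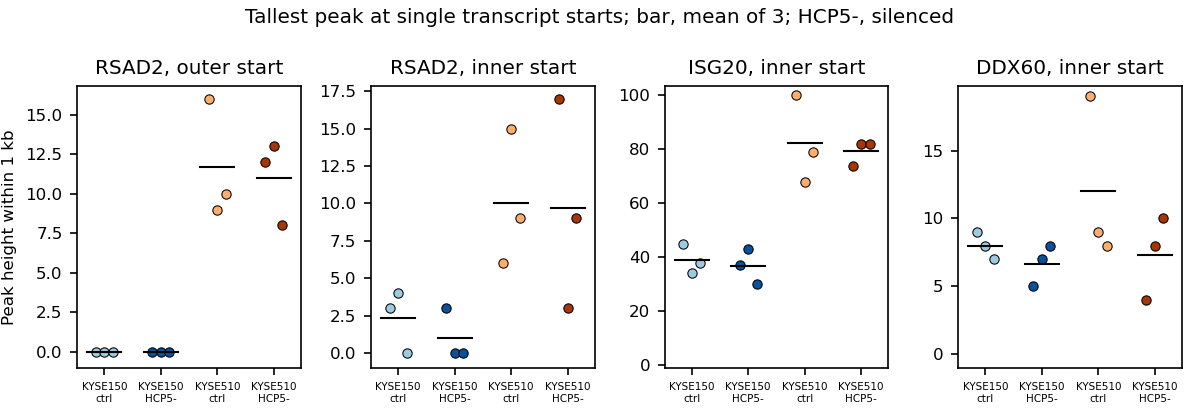
Height of the tallest peak within 1 kb of single annotated starts (y axis, a separate scale in each panel) in each library of the 4 groups (x axis, as in the plot of 12 genes; the line is the mean of 3). The outer start of RSAD2 has no listed peak in KYSE150, its inner start has heights of 3 or 4 in 3 KYSE150 libraries, and the inner starts of ISG20 and DDX60 have peaks in all 12.

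The letters of the ISRE did not sort the genes by line in a simple way. Of the 24 genes with an ISRE core match, 14 were listed in more KYSE510 than KYSE150 libraries, 13 in all 6 KYSE510 and 6 in all 6 KYSE150 libraries. Of the 9 without one, these numbers were 4, 6 and 4. The letters were sought at every annotated start and the peaks at the span ends, so the match and the peak can be at different places, as at RSAD2 and DDX60. Groups of this size allow no firm comparison, and no test of the difference was made.

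The genes that carry and control the interferon signal were taken from a list of 41 others. Of 9 ligand genes, 6 (IFNB1, IFNA1, IFNA2, IFNE, IFNK and IFNL3) had no listed peak in any library, as 22.0% of all genes did, and none had a peak in all 12. The kinases JAK1, JAK2 and TYK2, the factor STAT3 and all 4 inhibitors, SOCS1, SOCS3, PTPN2 and PTPN6, had a peak in all 12 libraries. So did 2 of 6 receptors (IFNAR1 and IFNGR1), 5 of 11 sensors and adaptors (CGAS, STING1, TBK1, IKBKE and EIF2AK2) and, among other interferon regulatory factors, IRF2 and IRF3. Of all genes, 40.7% had a peak in all 12 libraries, so the receptors, sensors and adaptors were near the background. The PTPN2 peak lies far from its annotated starts, at which it had none in any library.

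Among the 19 listed genes that could be tested between the lines, those that passed and are reported here were IRF2, a mostly repressive factor, and IRF3, which switches on interferon beta, both higher in KYSE510. Of all 9031 genes tested, 15.9% passed (8.67% higher in KYSE510), and the share among the 19 was near this. IRF2 had heights of 9, 8 and 11 in KYSE150 control and 25, 23 and 23 in KYSE510 control libraries (score difference 0.94 ± 0.22 SE, limma adjusted p = 0.0199). IRF3 had 9, 16 and 14 against 57, 39 and 43 (1.42 ± 0.27, limma adjusted p = 0.00879), at a peak that also lies in the window of BCL2L12. When peaks were ranked by fold enrichment over background in place of height, neither passed (limma adjusted p = 0.254 and 0.0752), so these calls rest on height. IRF2 also lost its call when KYSE150 control replicate 1 or 2 or KYSE510 control replicate 2 or 3 was left out (limma adjusted p = 0.0568, 0.0571, 0.0647 and 0.0623), and in HCP5-silenced libraries neither IRF2 (0.35, limma adjusted p = 0.493) nor IRF3 (0.80, limma adjusted p = 0.0541) passed. For silencing, 0 of 20 passed in KYSE150 and 0 of 22 in KYSE510.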

How the data were processed

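The data were MACS2 peak lists, 1 for each of 12 ATAC-seq libraries. The submitters' processing notes name Trimmomatic 0.36, Bowtie2 2.2.6, Picard 2.8.2, MACS2 2.1.1, bedtools 2.25.0 and GRCh38, with no order or settings; duplicate and multi-mapped reads are not described. Per the file headers, the deposited lists give for each peak the authors' Pileup, a signal (fragments over the summit, with no stated scaling), the fold enrichment, a ratio to local background, and a p-value and FDR. Each library has its own list, in which p-values reached 0.00987.

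Gene spans came from RefSeq GRCh38.p14, and sequences from its promoter table. Peaks with a Pileup of 3 or more were assigned within 1 kb of span ends (Python 3.11.15, pandas 2.3.3). Ranks were compared with limma 3.58.1 in R 4.3.3, without a replicate block, and tested on simulated data first. Members and lists were chosen with earlier results of these data known. Values in every library are given for genes called or, failing that, the 4 with the largest difference, for genes with a group-wise presence pattern, and for the 6 tallest and 6 lowest genes; others were added freely. Motifs were searched as written, on both strands. Some genes of the wider lists are not reported here.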

Additional observations from a re-analysis of the deposited data

How the results depend on the processing

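The count of genes called by limma for silencing was 0 in KYSE150 and for the interaction under every alternative. In KYSE510 it was 0 except for 2 when a peak in 3 of 6 libraries sufficed, and 0 to 3 when 1 library was left out, the 3 arising without HCP5-silenced replicate 1; no member was among them. The line count of 1435 became 218 with fold enrichment and 2538 when a peak in 3 of 6 libraries sufficed. It was 2717 of the 8159 genes tested with all 12 libraries, and 715 to 1008 when 1 control was left out. Members called in those line fits were few: HERC5 (height 5 or more, and without KYSE510 control replicate 2), ISG20 (without KYSE150 control replicate 2), SAMD9 (2 kb), IFI6, ISG15 and PARP9 (all 12), and IFI6 (HCP5-silenced libraries); the looser presence rule called 10, which mostly pass it through 1 line. IFITM3 in KYSE150 ran from -0.62 to 0.18 when 1 library was left out, and PARP14 in KYSE510 to 1.04 with 2 kb.

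Libraries of the same replicate number were at most weakly alike (correlations of deviations 0.00221 to 0.0357). In KYSE510 these were 0.0250 to 0.0357, above the -0.0314 to 0.00213 of differently numbered pairs. In KYSE150 and between the lines, the correlations of same-numbered and differently numbered pairs overlapped. With the replicate number as a block, 0, 0, 1335 and 0 genes were called for KYSE150, KYSE510, the lines and the interaction.

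The percent of members with a peak (main 49.6, 41.5, 69.9 and 74.8 for KYSE150 control, KYSE150 HCP5-silenced, KYSE510 control and KYSE510 HCP5-silenced) became 33.3, 24.4, 59.3 and 57.7 with height 5 or more, and 40.7, 38.2, 53.7 and 48.0 with the 50000 tallest peaks. For KYSE150 control and HCP5-silenced it became 59.3 and 54.5 with height 2 or more and 55.3 and 48.8 with an FDR of 0.05. At any annotated start, over the 33 members with an entry, it was 58.6 and 50.5 in KYSE150 and 73.7 in KYSE510 control. Within 2 kb it was 48.0 in KYSE150 HCP5-silenced and 73.2 in KYSE510 control. Leaving out 1 library gave 48.8 to 51.2, 40.2 to 42.7, 68.3 to 70.7 and 69.5 to 80.5. Members with a peak in KYSE510 controls only, 5, became 10 with height 5 or more, 3 within 2 kb and 5 to 7 when 1 library was left out. Among the 33 members with a promoter entry, the number was 3 at starts only (RSAD2, CMPK2 and ISG20) and 1 at any start (CMPK2). MX2, OAS2 and TRIM22 have no entry, so the start rules could not count them. Depth is unknown, so a missing peak sets no upper limit.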
